A study of Mus musculus with 4514 samples.

Results

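Hepatocytes, the metabolic cells of the liver, were followed over postnatal days 6, 9 and 12 (P6, P9 and P12), ages at which mouse pups still feed on milk. All cells of these 3 ages in the table of mSTRT-seq counts were taken, 30.5% of them from P6, 34.5% from P9 and 35% from P12, which makes 429 of the 2169 cells of that table and of the 4514 samples of the series. The series follows mouse hepatocytes through liver maturation, in single cells, single nuclei and bulk RNA. The question here is which genes stayed level across the 3 ages and which moved in one direction. Cells were picked singly into lysis buffer and processed by mSTRT-seq, a well-based method that gives each cell a barcode before the cDNA of many cells is pooled into a library. Every cell, at the 3 ages and at the neighbouring ages used for comparison (P0 and P3 before, P15 and P18 after), carries the labelled genotype Alb-Cre; Rosa-tdTomato. In these mice an albumin promoter drives a recombinase, which turns on a red fluorescent reporter, and no cell carries a further treatment. The labels name no animal or litter, so the cells of an age were summed into 1 pool, cells were never used as replicates, and p-values measure only the spread between pools, which may be technical.

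After birth the liver gives up the fetal tasks of blood formation and growth and takes over the metabolism of an animal that feeds on its own. During suckling the food is rich in fat and in milk sugar, and hepatocytes burn fatty acids and make ketone bodies and glucose. H19, a maternally expressed imprinted long non-coding RNA, and Afp, which encodes the fetal plasma protein alpha-fetoprotein, are made in large amounts by fetal hepatocytes and are switched off during postnatal life. Usf1 encodes a helix-loop-helix transcription factor that binds E-box DNA.

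The pools held 23083951 counts at P6, 28605033 at P9 and 26724520 at P12, and the median cell had 164763, 186602 and 172488 counts. Median numbers of genes with a count per cell were 6788, 7230 and 7111. Alb was counted in every cell, at 12620 CPM or more at P6, 13288 CPM or more at P9 and 12701 CPM or more at P12, and Ttr, Apoa1 and Trf were also counted in every cell, genes that define the labelled cell type. The level of a gene at an age is given in CPM, counts scaled to a total of 1000000 per cell with the spike-in entries left out, as the mean over the cells of that age.

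The P6 cells did not form a uniform set, and this bears on many results below. Cells numbered 1 to 65 in the labels and cells numbered 66 and above had similar median depths, 166048 and 161953 counts, yet 7.08% of 6203 genes differed between them by 2-fold or more. The same comparison between the lower and higher label numbers gave 1.90% at P9 and 0.788% at P12. The labels do not say what the numbers stand for. Erythroid marker genes summed to 64.3 CPM in the lower-numbered P6 cells and 1710 CPM in the higher-numbered ones, while macrophage marker genes summed to 124.7 and 35.8 CPM. Values with either P6 set alone therefore stand beside the results they bear on.

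Most expressed genes stayed level. Of 6320 genes with a mean of at least 10 CPM over the 3 ages, 3356 (53.1%) had a highest level less than 25% above the lowest, and these carried 59.9% of all counts. Only 2.07% climbed in one direction, with P12 at least 2-fold above P6 and each step at least 1.2-fold, and 1.68% declined by the same rule. Peaks at P9 numbered 4, dips at P9 numbered 8, and 2715 genes fitted no class. The genes nearest the edge were Smc2, just inside the rising class at 2.001-fold, and Shmt2, just outside it at 1.995-fold. The log2 ratio of P12 over P6 had a median of 0.05 over all expressed genes, and its 5th and 95th percentiles were -0.73 and 0.76. With only P6 cells 1 to 65, the level, rising and declining classes held 44.6%, 2.48% and 1.247% of expressed genes, and with only P6 cells 66 and above they held 41.8%, 2.53% and 2.64%.

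The steps within P6 to P12 were small beside the steps around birth. Between P6 and P9, 1.99% of genes at 10 CPM or more changed level by 2-fold or more, and between P9 and P12 1.77% did. The step into P6 from P3 gave 2.59% and the step out of P12 to P15 gave 3.42%, against 22% between E19.5 (E marks embryonic days) and P0 and 13.3% between P0 and P3. Each step compares 1 pool with 1 pool, so these shares are descriptions with no test, and the 7.08% between the label-number sets at P6 is larger than either step that follows it.

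Several of the most abundant secreted proteins of the liver were level. Alb, the main plasma protein, stood at 24393, 23033 and 26100 CPM at P6, P9 and P12. Ttr, which carries thyroid hormone and retinol-binding protein, stood at 18980, 21185 and 22582 CPM. Apoa1, the main protein of high-density lipoprotein, stood at 21660, 19287 and 19344 CPM, and Trf, the iron carrier transferrin, at 15833, 16283 and 16590 CPM. Of 41 expressed plasma protein genes 24 (58.5%) were level, beside 53.1% of all expressed genes, and their median log2 P12 over P6 was -0.12, beside 0.05. Members of this list that moved are given below. Of 26 expressed hepatocyte transcription factors 12 (46.2%) were level, among them Ppara, the nuclear receptor for fatty acids, at 147.96, 169.3 and 144.99 CPM. Slc2a2, the glucose carrier of the hepatocyte membrane, was also level, at 212.3, 194.4 and 206.4 CPM. Of 81 expressed ribosomal protein genes 57 (70.4%) were level.

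Genes that moved were also tested. An edgeR quasi-likelihood F test of the slope on age, over the 3 pools, had 1 residual degree of freedom, so the spread it uses is each gene's departure from a straight line together with that of the other genes. At an adjusted p under 0.05, 2.14% of 12392 genes tested rose and 2.24% fell, with a median slope near 0. Of the rising class 93.9% passed, and of the declining class 94.3%, while no level gene did. These classes and the test use the same pools, so the overlap says nothing beyond the size of the ratios. With only P6 cells 1 to 65 the test called 160 genes, with only P6 cells 66 and above it called 180, and with only P9 cells 75 and above it called 74. Of the rising genes 27.2% and 29.4% were still called with the lower-numbered and higher-numbered P6 cells alone, and of the falling genes 23.4% and 34.2%. All rising genes kept their sign with either P6 set, and 98.9% and 99.6% of the falling genes did.

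H19 was level over the 3 ages. Its gene lies on chr7:142575529-142578143 of the minus strand (GRCm38) and is annotated as a long intergenic non-coding RNA. H19 stood at 2602, 2198 and 2181 CPM at P6, P9 and P12, and every cell held counts of it. Single cells ran from a lowest value of 643 through a median of 2026 to a highest value of 14674 CPM at P6, from 97.7 through 2114 to 6737 CPM at P9, and from 53.7 through 2046 to 5562 CPM at P12. The medians thus lay close together while the range of cells at each age was wide. The slope was -0.22 ± 0.12 on the log2 scale over 6 days (SE, edgeR adjusted p = 0.357). The P6 mean covers 3724 CPM in cells 1 to 65 and 1496 CPM in cells 66 and above, P12 stood between those values, and the slope was -0.74 with the first set alone and 0.46 with the second (edgeR adjusted p = 0.148 and 0.308). Igf2, the imprinted neighbour of H19 that encodes a fetal growth factor, stood at 1421, 1501 and 1150 CPM and did not pass the slope test (edgeR adjusted p = 0.231).

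Afp held its level between P6 and P9 and was lower at P12. It lies on chr5:90490737-90508907 of the plus strand (GRCm38), a protein-coding gene. Afp stood at 11166, 10647 and 3228 CPM. In single cells its lowest, median and highest values were 3885, 10507 and 23885 CPM at P6, 3848, 10419 and 22506 CPM at P9, and 23.03, 1959 and 12675 CPM at P12. At P12, cells thus ranged from a residue to more than the P9 median. The slope was -1.77 ± 0.39 (SE, edgeR adjusted p = 0.051), which missed the threshold, and the first step was below 1.2-fold, so Afp belonged to no class. Both P12 label-number sets, at 2391 and 4064 CPM, lay below both P6 sets, at 12031 and 10315 CPM.

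Usf1 declined by less than 2-fold. It lies on chr1:171411313-171419142 of the plus strand (GRCm38) and is protein coding. Usf1 stood at 544, 459 and 362 CPM at P6, P9 and P12, above the 248.6 CPM of P3, the 204.4 CPM of P15 and the 33.6 CPM of P0. Median cells held 529, 408 and 340 CPM, with highest cells at 1592, 1407 and 1608 CPM. It fell by 0.66 ± 0.13 on the log2 scale over 6 days (SE, edgeR adjusted p = 0.0378). With only P6 cells 1 to 65 or only those from 66 up the edgeR adjusted p was 0.0753 and 0.174, and both P12 sets lay below both P6 sets. The fall of Usf1 was the only marker slope past the threshold.

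At P9 and P12 the 3 markers followed the lobule differently. Blood enters a liver lobule at the portal side and leaves at the central vein, and hepatocytes along the way express different genes. The Spearman correlation of Usf1 with the summed CPM of 29 periportal genes was 0.555 at P6, 0.596 at P9 and 0.708 at P12, over all cells of the age, and with 34 pericentral genes it was -0.492, -0.603 and -0.666. Afp ran the other way, at -0.261, -0.360 and -0.579 with the periportal sum. H19 was at -0.22, -0.02 and 0.05 with the periportal sum and at 0.26, 0.13 and -0.01 with the pericentral sum. At P6 it was thus near Afp, whose pericentral values were 0.25, 0.35 and 0.49. The P6 values span both label-number sets, which differ in H19. Both sums come from the same cells and libraries as the genes set against them, and cells of an age are not independent, so these values are descriptions. Serpina6, described next, followed the pericentral sum at 0.442, 0.619 and 0.490.

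**Figure D1:**
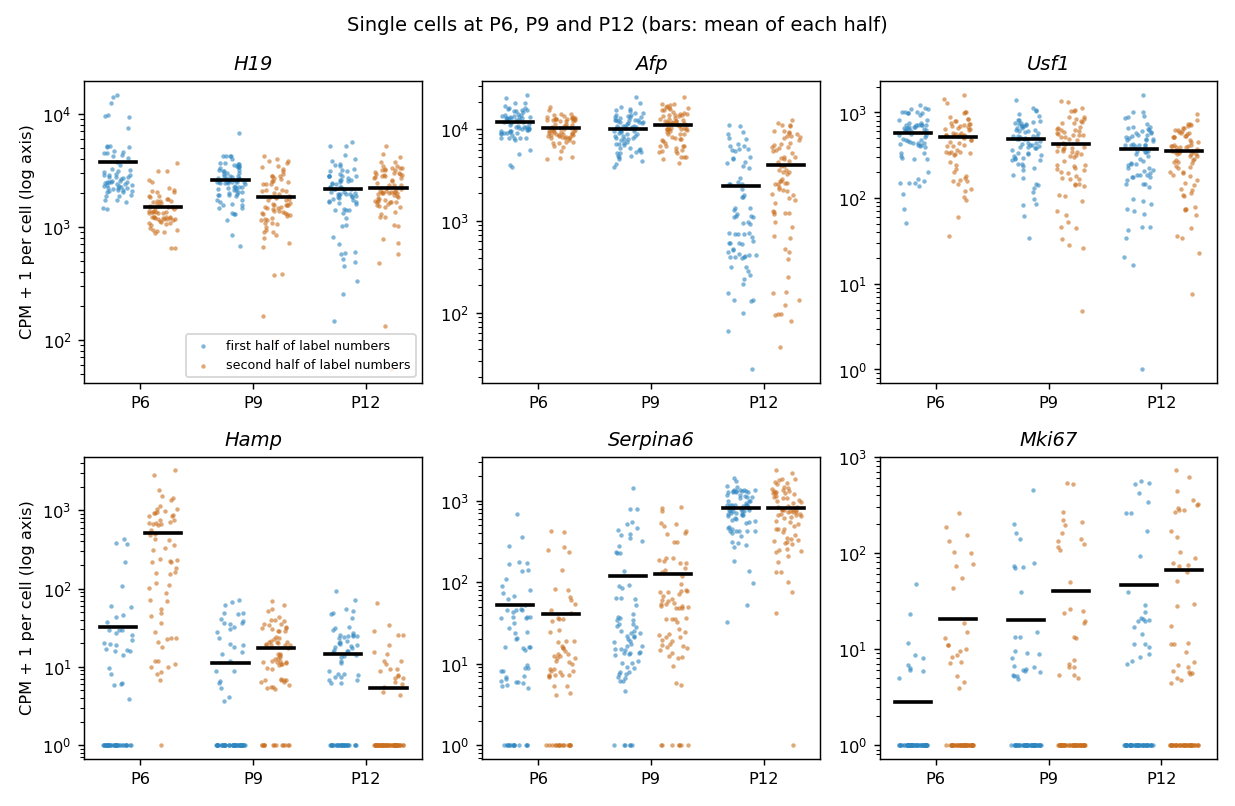
Level of H19, Afp, Usf1, Hamp, Serpina6 and Mki67 in every single cell at P6, P9 and P12, in CPM on a log axis, with cells coloured by lower or higher label number. H19 cells overlap at all ages while the median Afp cell is at 1959 CPM at P12 against 10419 CPM at P9. In Hamp the means of the 2 sets of P6 cells are 31.6 and 506 CPM, while their single cells overlap.

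Serpina6, which encodes the corticosteroid-binding globulin of plasma, was among the largest increases. It stood at 45.7, 121.4 and 813 CPM at P6, P9 and P12, and rose by 4.06 ± 0.32 (log2 over 6 days, SE, edgeR adjusted p = 0.0021). The median cell held 11.5, 30.5 and 756 CPM and the share of cells with a count was 77.1%, 91.2% and 99.3%, so the bulk of the cells was higher at P12. The rise followed a trough, since Serpina6 stood at 442 CPM at E19.5, 3.91 CPM at P0 and 12.7 CPM at P3, and P15 and P18 stood at 595 and 819 CPM. Both P6 sets, at 51.6 and 39.9 CPM, lay far below both P12 sets, at 816 and 810 CPM.

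Genes for the handling of foreign and steroid compounds moved both ways. Of 36 drug-metabolising enzymes tested, 5 rose and 5 fell by the edgeR test, against 2.14% and 2.24% of all genes tested. Cyp2c37 and Cyp2c54 were among those that fell. With either P6 set alone 3 of the list rose and 2 fell. Ces1f was the only falling gene that passed with both sets (edgeR adjusted p = 0.0485 and 0.0238). Cyp2c37 passed with neither set (edgeR adjusted p = 0.0514 and 0.0641) and Cyp2c54 not with the first (0.0864). Of 32 expressed, 16 were higher and 16 lower at P12. The risers of this list and others outside it included some of the largest increases. Cyp2c29, a cytochrome P450 that oxidises drugs and steroids, stood at 12.7, 37.5 and 152.1 CPM (log2 3.51 ± 0.22, SE, edgeR adjusted p = 0.00104). Sult2a1, a sulfotransferase for steroids and bile acids, stood at 224.9, 463 and 1652 CPM (log2 2.80 ± 0.21, SE, edgeR adjusted p = 0.00196), and its median cell at 87.6, 198.7 and 1626 CPM. The organic anion carrier Slc22a7 stood at 25.5, 71.9 and 221.8 CPM, and at P12 its lowest cell held 36.7 CPM, above the P6 mean. The related carriers Slc22a29 and Slco1a4 stood at 5.40, 16.1 and 42.8 CPM and at 8.42, 16.9 and 63.6 CPM. Each of these 5 genes also passed the edgeR test with either P6 set alone. The Cyp2c and Sult2a genes have near-identical relatives, and how reads shared between such genes were counted is not given in the sources used here, so the share of each member is uncertain.

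Of the largest increases, some rested on few cells. Slc1a2, the glutamate carrier found around the central vein, stood at 0.780, 6.09 and 39.6 CPM (log2 5.76 ± 0.24, SE, edgeR adjusted p = 0.00029). Only 8.40%, 26.4% and 30.7% of cells had a count, and the 10 highest of the 150 cells at P12 carried 95.5% of the level. The Spearman correlation of Slc1a2 with the summed CPM of the other pericentral genes was low, at -0.035, 0.147 and 0.178. Saa2, an acute phase protein, stood at 1.58, 6.60 and 33.9 CPM, with 97% of the P12 level in 10 cells and 2.56 and 65.3 CPM in the lower-numbered and higher-numbered P12 cells. Oat, ornithine aminotransferase, also a gene of the cells at the central vein, stood at 27.9, 108.8 and 195.4 CPM (log2 2.59 ± 0.25, SE, edgeR adjusted p = 0.00398), and its correlation with the summed CPM of the other pericentral genes was 0.404, 0.522 and 0.562. Slc1a2, Saa2 and Oat thus rose in the pool while their median P12 cells held 0, 0 and 29.5 CPM.

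The urea cycle and amino acid breakdown genes rose as a group. Of 28 tested, 11 rose and 0 fell by the edgeR test, against 2.14% and 2.24% of all genes. Of 26 expressed, 9 were in the rising class, none in the declining class, and the median log2 P12 over P6 was 0.77 beside 0.05 for all expressed genes. Cps1, which makes carbamoyl phosphate and opens the urea cycle, stood at 456, 779 and 1450 CPM (log2 1.59 ± 0.13, SE, edgeR adjusted p = 0.0021). Its lowest, median and highest cells were at 80.3, 438 and 1205 CPM at P6, 140.6, 761 and 1736 CPM at P9, and 161.8, 1432 and 3042 CPM at P12. Ass1, which joins citrulline and aspartate, stood at 287.3, 463 and 937 CPM, and Arg1, which releases urea, at 606, 776 and 1412 CPM. The amino acid enzymes Tat for tyrosine and Tdo2 for tryptophan stood at 147.3, 345 and 447 CPM and at 172.1, 269.1 and 439 CPM. With only P6 cells 1 to 65 or only those from 66 up, 6 and 8 of the list rose. All 5 of these enzymes passed the edgeR test with all P6 cells, but Tat passed with neither set (edgeR adjusted p = 0.0607 and 0.0703) and Arg1 not with the first (edgeR adjusted p = 0.0621), while Otc, at 513, 558 and 738 CPM, did not (adjusted p = 0.147). In 24 of the 26 expressed genes both P12 sets lay above both P6 sets, a pattern seen in 27.4% of all expressed genes.

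Genes tied to growth hormone and thyroid hormone moved in both directions. Of 22 tested, 7 rose and 4 fell by the edgeR test, against 2.14% and 2.24% of all genes tested. But with P6 cells 1 to 65 alone 2 rose and 1 fell, and with cells 66 and above 5 rose and 0 fell. Igf1, the postnatal growth factor made under growth hormone, stood at a mean of 345 and 791 CPM at P9 and P12 (log2 1.39 ± 0.21, SE, edgeR adjusted p = 0.0162), and its median cell at 270, 338.1 and 780 CPM at P6, P9 and P12. With the first P6 set alone its edgeR adjusted p was 0.117. Dio1, which activates thyroid hormone, stood at 76.3, 159.2 and 239.1 CPM, and Prlr, the prolactin receptor, at 112.3, 170 and 234.2 CPM, and both rose, but Prlr passed with neither P6 set (edgeR adjusted p = 0.0998 and 0.0523). Igfbp1 and Igfbp2, binding proteins of the insulin-like growth factors, fell, with 3362, 2906 and 1797 CPM and with 5217, 4648 and 3120 CPM. Socs2, an inhibitor of growth hormone signalling, fell as well, with 122.6, 87.97 and 69.8 CPM. Of these 3 falling genes, only Igfbp2 passed with a P6 set alone, the first (edgeR adjusted p = 0.0401). Ghr, the growth hormone receptor, stood at 184.03, 208.6 and 311.2 CPM and missed the threshold (edgeR adjusted p = 0.0528).

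Single genes of other pathways rose too. Cyp7a1, the rate-limiting enzyme of bile acid synthesis, stood at 17.3, 30.5 and 55.2 CPM (log2 1.58 ± 0.17, SE, edgeR adjusted p = 0.0053). It and the carrier Slco1a4 were the members of a list of 21 bile acid genes that rose, and none fell. Of all genes tested 2.14% rose and 2.24% fell. Pck1, which commits carbon to glucose synthesis, stood at 995, 1495 and 1781 CPM and Gpt, alanine aminotransferase, at 12.7, 16.7 and 51.4 CPM, and both rose. Apoc3, a brake on the clearance of triglyceride-rich particles, stood at 998, 1473 and 2830 CPM and rose. Apoa5, which speeds that clearance, stood at 720, 356 and 325.7 CPM and fell by 1.29 ± 0.23 on the log2 scale over 6 days (SE, edgeR adjusted p = 0.0251). Of 41 plasma protein genes tested, 2 rose and 6 fell by the edgeR test, against 2.14% and 2.24% of all genes tested. Apoc3 and C9 rose, and Apoa5, Fgb, Fgg, Kng1, Kng2 and Itih3 fell. With either P6 set alone only Kng1 of the falling ones passed (edgeR adjusted p = 0.0459 and 0.0412). Cebpb was the only rising gene of 33 hepatocyte transcription factors tested, at 6.38, 8.998 and 17.1 CPM, while Usf1 and Onecut1 fell. With either P6 set alone Pck1 (edgeR adjusted p = 0.116 and 0.0968), Apoa5 (0.0774 and 0.0723), Cebpb (0.202 and 0.0527) and Onecut1 (0.204 and 0.0511) did not pass. Gpt did not pass with the first set (edgeR adjusted p = 0.0719) and Cyp7a1 not with the second (0.0557), while Apoc3 passed with both.

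**Figure D2:**
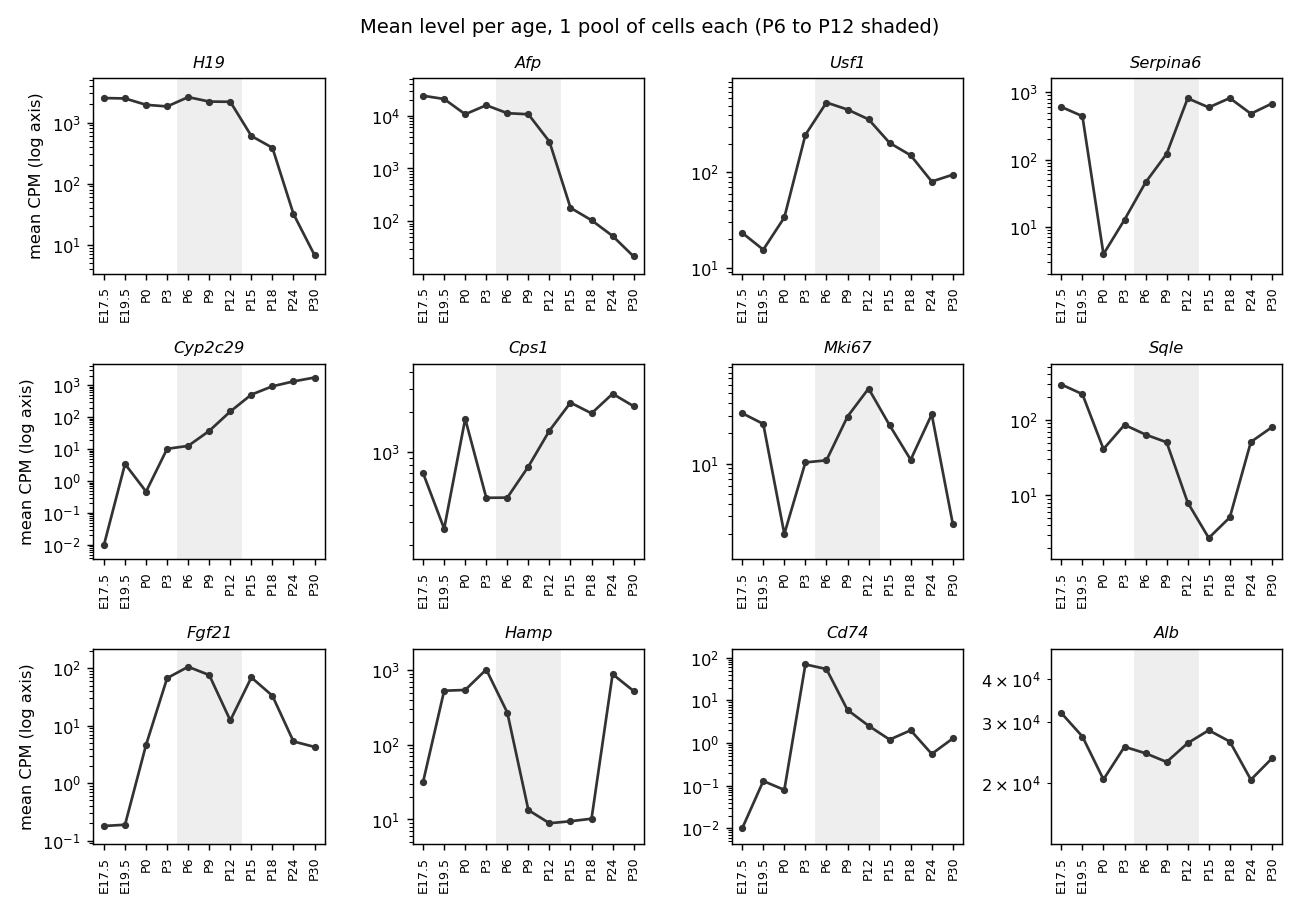
Level of the genes shown at each of 11 ages from E17.5 to P30, in CPM on a log axis, 1 point per pool, with P6 to P12 shaded. Levels of 0 are drawn at 0.01, and the shaded ages show H19 at 2181 to 2602 CPM, Serpina6 climbing to 813 CPM, and Hamp at 270.6, 13.4 and 8.90 CPM.

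Cell cycle genes rose as a group, with a wide difference between the P6 sets. Of 40 tested, 27 rose and 0 fell by the edgeR test, against 2.14% and 2.24% of all genes tested. Of 33 expressed, 16 were in the rising class and none was level, against 2.07% and 53.1% of all expressed genes. The median log2 P12 over P6 of the list was 1.26. Mki67, a marker of dividing cells, stood at 10.8, 29.3 and 55.6 CPM (log2 2.40 ± 0.18, SE, edgeR adjusted p = 0.00196). The spindle genes Tpx2, Cenpe and Prc1 stood at 2.89, 14.5 and 19.6 CPM, at 3.33, 10.6 and 18.2 CPM and at 7.83, 21.7 and 36.02 CPM. Top2a, which untangles DNA, stood at 27.6, 48.98 and 71.2 CPM, and Mcm6, part of the replication helicase, at 66.7, 77.96 and 95.5 CPM without passing the test (edgeR adjusted p = 0.109). In P6 cells 1 to 65 and in those from 66 up, Mki67 stood at 1.83 and 19.6 CPM, and the median log2 P12 over P6 of the list was 3.79 and 0.51. With P6 cells 1 to 65 alone 4 of the cell cycle genes passed the edgeR test, and with those from 66 up 4 others did. The first 4 were Cdk1, Ccne1, Pcna and Hells (edgeR adjusted p = 0.0491, 0.0467, 0.0357 and 0.0465). Of these only Cdk1 passed with all P6 cells. Mki67, Tpx2 and Hmmr passed with the second set only (edgeR adjusted p = 0.0644, 0.132 and 0.125 with the first). In 24 of 33 both P12 sets lay above both P6 sets, against 27.4% of all expressed genes.

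The share of cells with cell cycle counts gave the same order. Each cell was thinned to 50000 counts, shallower cells were left out (2 at P6, 1 at P9 and 2 at P12), and a cell was counted when at least 3 of 10 cycle genes had a count. The share was 20.9% at P6 (27 cells, 95% exact Clopper-Pearson interval 14.3 to 29%), 34.7% at P9 (51 cells, 27 to 43%) and 39.9% at P12 (59 cells, 31.9 to 48.2%). It was 17.6% at P3 and 22.4% at P15. Without thinning the shares were 55%, 60.1% and 70%. Intervals cover counting error only, and since cells of an age may come from 1 animal they do not compare ages. P6 cells 1 to 65 and those from 66 up gave 11.1% and 30.3%, and both P12 sets, at 38.4% and 41.3%, lay above both. At the same thinning, the endothelial marker Pecam1 had a count in 1.55%, 2.04% and 3.38% of cells and the macrophage marker Marco in 28.7%, 46.9% and 43.9%. The part of cells or RNA of other types in the cycle counts was not tested.

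**Figure D3:**
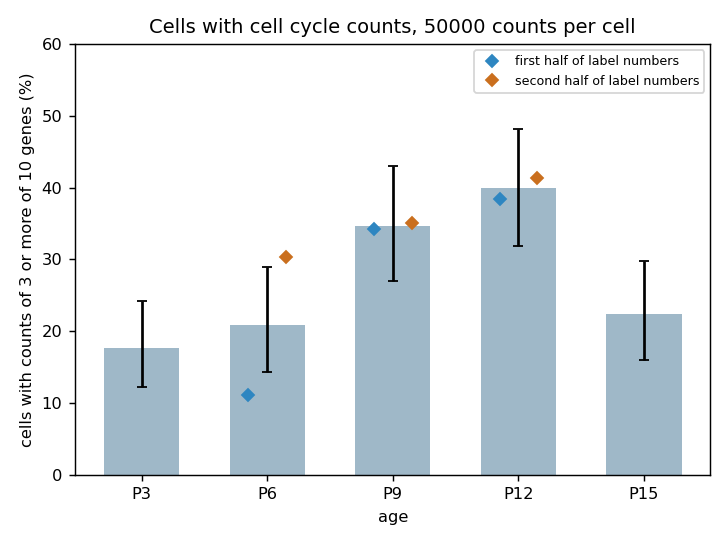
Percent of cells in which at least 3 of 10 cell cycle genes had a count after thinning to 50000 counts, at P3, P6, P9, P12 and P15, with exact 95% intervals, and for the lower and higher label numbers at P6, P9 and P12. The points stand at 20.9%, 34.7% and 39.9% at P6, P9 and P12, and the 2 sets of P6 cells stand at 11.1% and 30.3%.

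The promoters of 3 rising cell cycle genes are shown because these genes moved together and are known to share promoter elements in mammals. Many genes used late in the cell cycle carry a cell cycle homology region, searched here as TTTGAA, and CCAAT boxes, searched as CCAAT, both on either strand. The windows are the 250 bases before the RefSeq start site on GRCm38.p6, printed 5′ to 3′ on the strand of the gene, with matches in capitals. Mki67 lies at chr7:135716380-135716629 on the minus strand, the second listed start of Prc1 at chr7:80294226-80294475 on the plus strand, and Hmmr, which encodes a spindle protein, at chr11:40733438-40733687 on the minus strand.
Mki67: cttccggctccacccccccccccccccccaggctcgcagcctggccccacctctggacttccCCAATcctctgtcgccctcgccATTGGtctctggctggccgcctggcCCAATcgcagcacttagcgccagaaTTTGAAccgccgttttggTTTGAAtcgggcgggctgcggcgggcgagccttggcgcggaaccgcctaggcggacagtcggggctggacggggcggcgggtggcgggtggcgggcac
Prc1: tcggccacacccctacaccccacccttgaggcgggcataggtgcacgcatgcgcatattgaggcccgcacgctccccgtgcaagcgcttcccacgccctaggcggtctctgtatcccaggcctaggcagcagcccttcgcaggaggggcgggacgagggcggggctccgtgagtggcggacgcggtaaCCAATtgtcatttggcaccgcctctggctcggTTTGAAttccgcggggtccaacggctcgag
Hmmr: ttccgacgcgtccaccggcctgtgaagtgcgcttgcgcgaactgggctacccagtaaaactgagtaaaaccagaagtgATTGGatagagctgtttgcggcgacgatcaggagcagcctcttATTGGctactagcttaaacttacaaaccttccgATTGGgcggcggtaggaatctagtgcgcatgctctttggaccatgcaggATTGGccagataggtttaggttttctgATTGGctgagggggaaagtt
Mki67 holds 2 matches to TTTGAA and 3 to CCAAT, Prc1 holds 1 of each at this start while its first listed start holds CCAAT and no TTTGAA, and Hmmr holds 5 matches to CCAAT. Of the 28 expressed cell cycle genes with a RefSeq window, 22 (78.6%) held CCAAT and 9 (32.1%) held TTTGAA. Of 4796 expressed genes with a window 41.6% and 13.3% did, and of all 27025 genes with a window 37.5% and 18.3%. A gene was counted when the window of any of its listed starts held a match. The matches are descriptions of letters in these windows.

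Cholesterol synthesis genes were lower at P12. Of 20 expressed, 19 were lower at P12 than at P6, 4 were in the declining class and 1 was level, and the median log2 P12 over P6 was -1.44. By the edgeR test 5 fell and 0 rose, against 2.24% and 2.14% of all genes tested. Sqle, squalene epoxidase, stood at 63.7, 50.4 and 8 CPM (log2 -2.92 ± 0.62, SE, edgeR adjusted p = 0.0467), and its median cell at 43.99, 35.3 and 0 CPM. Hmgcs1, an early enzyme of the pathway, stood at 278.7, 213.5 and 97.9 CPM and fell by 1.57 ± 0.25 on the log2 scale over 6 days (SE, edgeR adjusted p = 0.0189). Fdps and Idi1, which build the isoprene chain, stood at 137.5, 122.4 and 29.4 CPM and at 108.9, 112.8 and 24.1 CPM but did not pass (edgeR adjusted p = 0.0734 and 0.126). The larger step of these 4 genes lay between P9 and P12. In 17 of the 20 genes both P12 sets lay below both P6 sets, against 18.4% of all expressed genes, and with either P6 set alone 1 of the genes passed. Sqle passed with neither set (edgeR adjusted p = 0.148 and 0.0719). Across cells, Sqle and Fdps had Spearman correlations of 0.518, 0.540 and 0.282 at P6, P9 and P12.

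Genes of fatty acid burning moved less than those of cholesterol synthesis, and mostly downward. Of 29 expressed genes of fatty acid oxidation and ketone synthesis, 15 (51.7%) were level and 3 declined by the class rule. Of all expressed genes 53.1% and 1.68% did. Of the 29, 25 were lower at P12 than at P6, and the median log2 P12 over P6 was -0.27 beside 0.05. Of 30 tested, 7 fell and 0 rose by the edgeR test, against 2.24% and 2.14% of all genes tested. With only P6 cells 1 to 65 or only those from 66 up, 3 and 2 fell. Cyp4a10, a fatty acid hydroxylase induced through Ppara, stood at 408, 192.4 and 112.4 CPM (log2 -2.00 ± 0.16, SE, edgeR adjusted p = 0.0021), and Plin2, a coat protein of lipid droplets, at 694, 463 and 307.8 CPM (log2 -1.21 ± 0.13, SE, edgeR adjusted p = 0.00496). Fgf21, a fasting hormone secreted by the liver, stood at 105.9, 76.1 and 12.3 CPM (log2 -3.00 ± 0.58, SE, edgeR adjusted p = 0.0349), with a median cell at 62.3, 27.6 and 3.48 CPM. Cpt1a, which admits fatty acids to mitochondria, stayed level at 242.8, 234.2 and 217.3 CPM, as did Acads and Slc25a20. Cyp4a10 passed with either P6 set, and so did Plin2, while Fgf21 passed with neither (edgeR adjusted p = 0.0687 and 0.0968).

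Fetal and imprinted growth genes other than H19 and Igf2 tended downward. Of 13 tested, 7 fell and 0 rose by the edgeR test, against 2.24% and 2.14% of all genes tested. Of 11 expressed, 4 declined by the class rule, against 1.68% of all expressed genes, with a median log2 P12 over P6 of -0.98. Meg3, a maternally expressed non-coding RNA, stood at 110.95, 30.1 and 19.7 CPM (log2 -2.38 ± 0.31, SE, edgeR adjusted p = 0.0108). Gpc3, a surface proteoglycan of fetal hepatocytes, stood at 530, 431 and 180.6 CPM (log2 -1.58 ± 0.23, SE, edgeR adjusted p = 0.0148). Grb10, an imprinted brake on growth, stood at 183.2, 121.6 and 70.5 CPM (log2 -1.51 ± 0.16, SE, edgeR adjusted p = 0.00515). Peg3, Igf2bp3, Bex4 and Rian fell as well. With only P6 cells 1 to 65 or only those from 66 up, 4 and 2 of the list fell. Meg3 and Grb10 passed with either set, Gpc3 and Peg3 with the first only (edgeR adjusted p = 0.104 and 0.236 with the second), and Igf2bp3, Bex4 and Rian with neither. Cdkn1c, an imprinted inhibitor of the cell cycle, stood at 57.6, 79.1 and 94.1 CPM, the only expressed member of the list higher at P12, and did not pass (edgeR adjusted p = 0.0945).

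Smaller sets fell beside these. Of 12 tested genes of serine and asparagine synthesis and other targets of the stress factor ATF4, 5 fell and 1 rose by the edgeR test. Of all genes tested 2.24% fell and 2.14% rose. With either P6 set alone 1 of the 12 fell and 0 rose. Asns, asparagine synthetase, stood at 64.1, 54 and 22.1 CPM and fell, and Shmt2, a mitochondrial enzyme of one-carbon metabolism, stood at 81.8, 118.1 and 163.2 CPM and rose. Neither passed with a P6 set alone (edgeR adjusted p = 0.0965 and 0.0675 for Asns, 0.0526 and 0.0975 for Shmt2). Galactose, released from milk sugar, is used through 6 genes on the list, among which Galk1 fell, at 547, 465 and 356 CPM, though not with P6 cells 66 and above alone (edgeR adjusted p = 0.354). Galt, the next enzyme, stayed level at 63.1, 63.3 and 62.1 CPM.

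**Figure D4:**
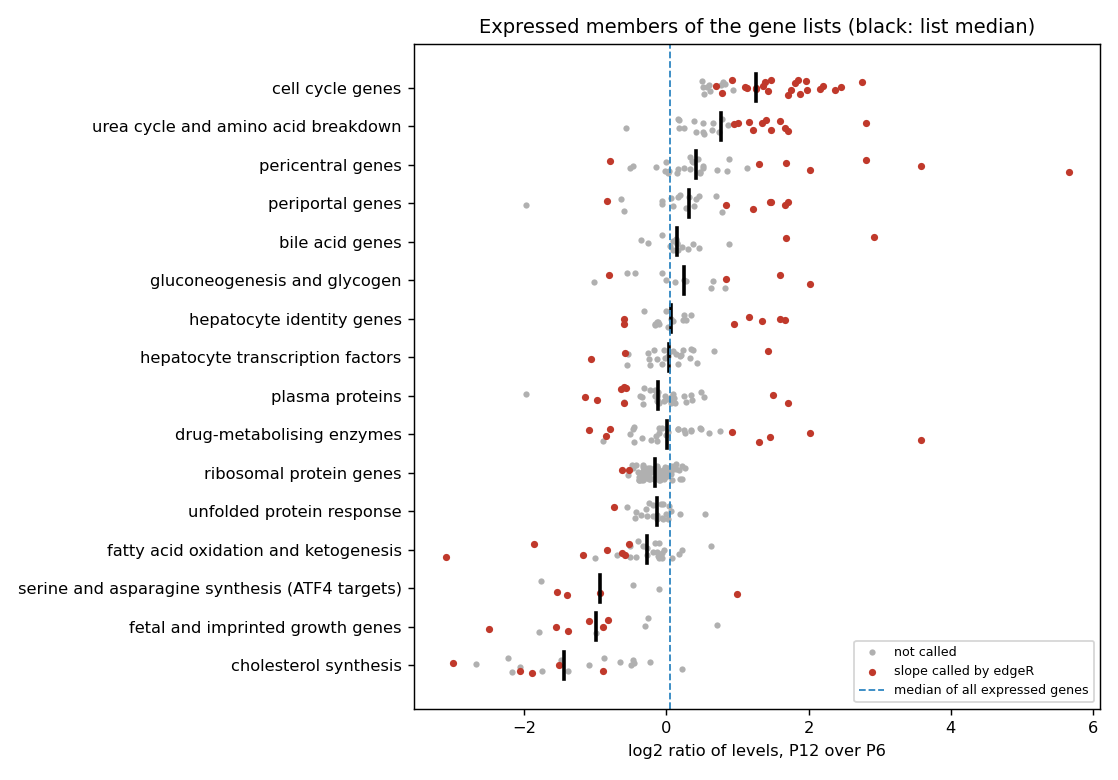
Log2 ratio of P12 over P6 for the expressed members of the gene lists, 1 point per gene, with the median of each list marked and the median of all expressed genes as a line. The cell cycle list has its median at 1.26, urea cycle and amino acid breakdown at 0.77, fetal and imprinted growth genes at -0.98 and cholesterol synthesis at -1.44.

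Of the 15 largest declines in one direction, 11 were of antigen presentation, interferon-inducible and iron-signalling genes, a grouping made after their values were seen, and the P6 levels of many were higher in P6 cells 66 and above. The others were Mgst2, Cgref1, Fgf21 and Nupr1. The largest fall of any expressed gene was that of BC023105, which is in no class because its second step was small. It stood at 106.9, 2.44 and 2.18 CPM (log2 -6.32 ± 0.99, SE, edgeR adjusted p = 0.0178), with P6 sets at 39.5 and 173.3 CPM, and passed with neither set (edgeR adjusted p = 0.0558 and 0.0538). H2-Aa, H2-Ab1 and H2-Eb1 encode chains of class II antigen-presenting molecules and Cd74 their invariant chain. Cd74 stood at 54.3, 5.97 and 2.55 CPM at P6, P9 and P12 (log2 -4.96 ± 0.43, SE, edgeR adjusted p = 0.00279), with 62.6%, 45.3% and 16% of cells holding a count. It stood at 7.47 CPM in P6 cells 1 to 65 and 100.5 CPM in P6 cells 66 and above, and the edgeR adjusted p was 0.199 with the first set alone and 0.0219 with the second. H2-Eb1 stood at 3.87 and 112.2 CPM in the 2 sets, and its edgeR adjusted p with the first set was 0.644. H2-Aa and H2-Ab1 likewise passed with the second set only (edgeR adjusted p = 0.109 and 0.274 with the first). At P3 Cd74 stood at 69.8 CPM, at P0 at 0.0797 CPM and at P15 at 1.204 CPM.

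Macrophages and lymphocytes also carry these molecules. Across cells, the Spearman correlation of Cd74 with the macrophage gene C1qa was -0.244 at P6, 0.138 at P9 and 0.0982 at P12, and with the interferon-inducible gene Gbp2 it was 0.557, 0.154 and 0.154. The P6 values span both label-number sets, which differ in these genes. Macrophage markers were lower in P6 cells 66 and above, at 35.8 CPM for 12 genes against 124.7 CPM in cells 1 to 65, and the 12 lymphocyte and neutrophil markers summed to 1.98 and 3.51 CPM, with Cd3e, Cd79a and Ms4a1 at 0 at P6. Erythroid markers were higher in the same cells, at 1710 against 64.3 CPM for 8 genes, and the correlation of Cd74 with Hbb-bs was 0.332 at P6. The part of erythroid or macrophage RNA in these declines was not tested.

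Genes that answer to interferons in mice followed the same pattern in milder form. Tgtp1, a guanosine triphosphatase induced by interferon, stood at 111.5, 14.6 and 9.31 CPM (log2 -3.66 ± 0.50, SE, edgeR adjusted p = 0.0126). Its P6 sets stood at 56.6 and 165.5 CPM and it passed with either (edgeR adjusted p = 0.0391 and 0.0405). Gbp2, a guanylate-binding protein, stood at 38, 5.47 and 3.75 CPM, with P6 sets at 20.1 and 55.7 CPM, and Ubd, a ubiquitin-like modifier, at 60.03, 7.49 and 5.75 CPM, with P6 sets at 18.5 and 100.9 CPM. With P6 cells 1 to 65 alone the edgeR adjusted p was 0.0517 for Gbp2 and 0.0589 for Ubd.

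Hamp, the peptide hormone hepcidin that lowers iron uptake, and genes driven by bone morphogenetic protein (BMP) signals were lower at P9 and P12. Of 19 tested genes of iron and metal handling, 4 fell by the edgeR test, Hamp, Hamp2, Id1 and Smad7, and 1 rose, Tfrc. Of all genes tested 2.24% fell and 2.14% rose. Hamp stood at 270.6, 13.4 and 8.90 CPM (log2 -5.46 ± 0.83, SE, edgeR adjusted p = 0.0162). Its P6 cells ran from 0 through a median of 25.8 to 3213 CPM, and its highest cells at P9 and P12 held 69.4 and 92.4 CPM. The P6 sets stood at 31.6 and 506 CPM, both above the P12 sets at 13.5 and 4.33 CPM, and the edgeR adjusted p was 0.0456 with cells 1 to 65 and 0.0507 with cells 66 and above. Most of P6 cells 1 to 65 held no count of Hamp, while cells 55, 59 and 63 held 364.9, 428.4 and 378.7 CPM. The mean of that set thus rested largely on few cells. Hamp had stood at 1022 CPM at P3 and stood at 886 CPM at P24, so P9 to P18 formed its low stretch. Id1 and Id3, inhibitors of helix-loop-helix factors and direct BMP targets, stood at 81.8, 19.3 and 5.87 CPM and at 60.5, 11.6 and 5.67 CPM, and both passed with either P6 set. Hamp2 did not pass with cells 1 to 65 (edgeR adjusted p = 0.442), at 6.97 CPM there against 7.32 and 2.16 CPM in the P12 sets. Smad7 (edgeR adjusted p = 0.332 and 0.0704) and Tfrc (0.133 and 0.12) passed with neither P6 set. Across cells at P6 the Spearman correlation of Hamp was 0.553 with Id1, 0.881 with Hamp2 and 0.578 with Hbb-bs, against -0.04, 0.50 and -0.17 at P9. Hamp and Hamp2 are near-identical copies, so reads of either may be split between them.

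The promoters of Gbp2, Tgtp1 and Hamp are shown because they carry the letters of elements known for these pathways. The core of the interferon-stimulated response element, 2 copies of GAAA set 2 bases apart, and GGCGCC, the core of a BMP response element, were both searched on either strand. Windows, build and source are as for Mki67, with Gbp2 at chr3:142620413-142620662 on the plus strand, Tgtp1 at chr11:48992247-48992496 on the minus strand and Hamp at chr7:30944030-30944279 on the minus strand, and capitals mark the match.
Gbp2: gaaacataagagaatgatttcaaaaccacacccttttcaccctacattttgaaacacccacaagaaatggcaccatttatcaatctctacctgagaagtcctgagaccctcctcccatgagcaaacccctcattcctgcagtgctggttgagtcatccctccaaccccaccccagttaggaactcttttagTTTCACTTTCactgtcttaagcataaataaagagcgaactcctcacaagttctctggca
Tgtp1: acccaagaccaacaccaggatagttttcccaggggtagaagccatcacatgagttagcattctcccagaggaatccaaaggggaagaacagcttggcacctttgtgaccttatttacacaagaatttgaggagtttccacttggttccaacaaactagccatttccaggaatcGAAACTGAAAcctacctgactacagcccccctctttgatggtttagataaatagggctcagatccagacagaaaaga
Hamp: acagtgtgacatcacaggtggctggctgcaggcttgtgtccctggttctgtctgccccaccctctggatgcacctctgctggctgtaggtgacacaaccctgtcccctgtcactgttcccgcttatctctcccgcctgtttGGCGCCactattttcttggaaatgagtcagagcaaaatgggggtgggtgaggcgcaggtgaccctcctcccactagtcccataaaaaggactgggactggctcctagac
Of the 15 genes with the largest declines 12 had a window, of which 2 held the spaced GAAA pair and 1 held GGCGCC. The shares over 4796 expressed genes were 2.84% and 19.7%, and over all 27025 genes with a window 3.46% and 10.8%. These 3 windows were picked for holding a match.

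Few genes turned at P9. Mt1 and Mt2, metallothioneins that bind zinc and copper, dipped, at 862, 251.8 and 609 CPM and at 166.96, 15.1 and 40.1 CPM. The other dips were the globin genes Hba-a1, Hba-a2, Hbb-bs and Hbb-bt together with Cxcl9 and Egr1. Hbb-bs stood at 286.8, 14.1 and 32.9 CPM, its highest P6 cell held 22844 CPM beside a median of 17.7 CPM, and its P6 sets stood at 26.7 and 543 CPM. The peaks were Casc4, at 25.1, 81 and 30.6 CPM, Tc2n, Cyp2a4 and the unnamed transcript A330069E16Rik, and in each the median cell was at or below 19.4 CPM at P9. None of the 12 genes passed the slope test by edgeR, which looks for one direction.

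Against the ages just before, no gene passed. P6, P9 and P12 were set against P0 and P3 in an edgeR model of 7 pools with P15 and P18 as the remaining group and 4 residual degrees of freedom. Of 13039 genes 0 were higher and 0 lower (0% each), 2516 had an unadjusted p under 0.05, the smallest adjusted p was 0.0741, and DESeq2 called 785. Without P3 edgeR called 2322 genes, and without P0 7. Usf1 averaged 1.54 higher on the log2 scale in P6 to P12 than in P0 and P3 (edgeR adjusted p = 0.282).

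Against the ages just after, 13 genes were higher (0.0997%) and 28 lower (0.215%) in P6 to P12 than in P15 and P18, in the same edgeR model. Afp averaged 7939 ± 4149 CPM (SD, n = 3 pools) at P6 to P12 and 132.3 CPM at P15 and P18, a log2 difference of 5.91 ± 0.66 (SE, edgeR adjusted p = 0.0431). H19 averaged 2193 ± 184.3 CPM (SD, n = 3 pools) and 509 CPM, a log2 difference of 2.11 ± 0.25 (SE, edgeR adjusted p = 0.0431). Igf2, at 1421, 1501 and 1150 CPM against 173.2 and 18.7 CPM, did not overlap either but was not called (edgeR adjusted p = 0.147). Phlda2, an imprinted gene, stood at 11.4, 8.34 and 2.92 CPM against 0.301 and 0.167 CPM, and Rian, a non-coding RNA of the Meg3 locus, at 8.40, 4.08 and 2.12 CPM against 0.0638 and 0.146 CPM, and both were among the 13. Igdcc4, Iqca, Slc44a5, Tmem212 and Tmem40 were the others with the largest differences.

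The 28 genes lower at P6 to P12 than at P15 and P18 included a carrier, a protease inhibitor and an enzyme. Mfsd2a, a carrier of lysophospholipids, stood at 0.0420, 0.3902 and 0.102 CPM at P6, P9 and P12 against 8.90 and 15.8 CPM at P15 and P18, and its P6 level rests on 1 count. Mug1, a protease inhibitor of plasma, stood at 46.2, 55.9 and 49.01 CPM against 228.2 and 880 CPM, and Prodh, proline dehydrogenase, at 1.22, 2.93 and 4.88 CPM against 45.9 and 66.7 CPM. Each passed at an edgeR adjusted p of 0.0431, and none of the values at P6 to P12 reached those at P15 or P18. The count of 41 dropped to 0 when P6, P9 or P18 was left out and to 7 without P15, and it was 34 without P12, while DESeq2 called 593. Usf1 was not called on this side either, at 544, 459 and 362 CPM against 204.4 and 151.4 CPM (edgeR adjusted p = 0.448).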

How the data were processed

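Hepatocytes of P6, P9 and P12 and of the ages around them were measured by mSTRT-seq. The table holds whole-number counts per gene symbol, deposited by the authors without normalization, for 40824 genes and 92 ERCC spike-in entries in 2169 cells. Submitters' processing notes name featureCounts 1.5.3 and 2.0.0, HISAT2 2.1.0, SAMtools 1.3.1, Bowtie2, HTSeq 0.6.0, Trimmomatic 0.39, TopHat, UMI-tools 0.5.0 and TopHat2 2.1.0 with no role, and the builds GRCm38 and mm10. Whether counts are reads or molecules, and whether strand was used, is not given in the sources used here. The 526 columns of P60 cells were not used. No 2 cells had identical columns, and no doublet caller was run because cells were picked singly.

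Spike-ins, 1.80% of the counts of the 3 ages, were dropped and each cell was scaled to CPM. Pools of summed counts were fitted with edgeR 4.0.16 in R 4.3.3 (filterByExpr, TMM, quasi-likelihood F test, two-sided, Benjamini-Hochberg threshold 0.05), checked on simulated counts, with DESeq2 1.42.0 as an alternative. Other alternatives were DESeq2 size factors, no filter, deeper cells, other thresholds and scalings, leaving out ages, and label-number sets, the last chosen after seeing the data. The depth of 23083951 to 28605033 counts per pool sets the precision, the lowest level described rests on 1 count, and intervals cover counting error only, since amplified reads are not independent. Members and gene lists were chosen with earlier results of these data known. Named genes are the markers, the 15 largest changes each way among one-direction genes, the 12 highest level genes, the P9 peaks and dips, up to 4 members with the largest and 2 with the smallest change per list, and the 8 largest called differences each way; list members that passed the test, some level ones and some that missed the threshold were named beside them after their values were seen. Gene positions are from GENCODE M21, promoter windows from RefSeq. Some genes that the rule names are not reported here.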

Additional observations from a re-analysis of the deposited data

How the results depend on the processing

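No named gene that passed the slope test changed the sign of its log2 ratio of P12 over P6 under an alternative. Among genes that did not pass, a trimmed mean over cells turned Hba-a1 to 0.95, Hbb-bs to 0.19 and Tc2n to -0.11, and the H19 slope was -0.74 or 0.46 with either P6 set. No paired analysis was possible because label numbers name different cells at each age and the tests use 1 pool per age. The genes with a slope, 4.38% of those tested, were 8.35% without the filter on low counts and 7.93% with P3 and P15 added. They were 1.3% or 1.46% with only P6 cells 1 to 65 or those from 66 up, 0.611% with only P9 cells 75 and above and 1.58% with only P12 cells 1 to 75. DESeq2 called 506. Leaving out an age was not possible for the slope, as 2 pools leave no residual degree of freedom. Against P0 and P3 the count of 0 became 1112 without the filter and 785 with DESeq2, and leaving out 1 age gave 0 to 2322. Against P15 and P18 the count of 41 became 743 and 593, and leaving out 1 age gave 0 to 34. The cause was not tested.

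The rising and declining classes held 4.07% and 3.20% of expressed genes at 1.5-fold, and the declining class 2.64% with only P6 cells 66 and above. The level class held 80.8% at a limit of 1.5-fold. At a minimum of 50 CPM the 3 classes held 43, 37 and 1347 genes. Shares of cells with cycle counts at P6, P9 and P12 were 55%, 60.1% and 70% without thinning, 13.7%, 22.3% and 28% at 25000 counts, 35.7%, 46.9% and 54.7% with at least 2 genes and 8.53%, 17.7% and 23.6% with at least 5. A trimmed mean over cells, which drops the highest and lowest 5%, moved the log2 ratio of Slc1a2 to 3.85 and of Saa2 to 1.35 and that of Tpx2 to 4.80. Genes under the 10 CPM minimum were not classed, and a lasting difference between animals of an age cannot be told apart from age.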
